A study of Glycine max with 47 samples.

Results

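Reference genes are transcripts whose level is taken to stay the same across samples, so that the level of another transcript can be given relative to them in quantitative PCR. The method holds only as far as the reference itself does not move with the treatment, the genotype or the age of the tissue, and such genes are therefore checked for stability before use. The 6 soybean genes described here, Glyma.12g020500, Glyma.12g051100, Glyma.12g024700, Glyma.18g290800, Glyma.02g276600 and Glyma.19g052400, were given as a list of IDs of genes commonly used in that way, and the rule that lists them uses no measured value. They are 6 of the 55983 genes of the deposited table, and all 6 were among the 43122 genes with a CPM value, the count brought to a common library total, of 0.5 or more in 1 or more libraries. No source used here pairs the 6 IDs with a gene name or a position, so they are given by ID and the function of their products is not described. A CPM value is not corrected for transcript length, so levels are compared between libraries and never between genes.

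Roots of 2 soybean cultivars were sequenced in 47 libraries, each from whole roots of greenhouse plants grown in a water bath. PI518671, the cultivar whose genome also gave the reference transcripts, is susceptible to the soybean cyst nematode (SCN), and MN1806CN is resistant to it, while both are susceptible to the soybean aphid (SBA). SCN is a roundworm that feeds inside the root, and SBA is an insect that feeds on the shoot. Each cultivar was left as an uninfested control or was given SCN eggs at planting (SCN), aphids on the leaves at the second vegetative stage (SBA) or both pests (SCN:SBA), and roots were taken 5 or 30 days post aphid infestation (dpi). The 16 groups of cultivar, treatment and time point held 3 libraries each, one from each of 3 blocks of plants, except the MN1806CN control at 30 dpi with 2. Roots of 5 dpi came from Water bath I and roots of 30 dpi from Water bath II, so time point and water bath cannot be told apart.

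Total estimated counts ranged from 8472681 to 47902105 per library, with a median of 18350884. Of the libraries, 2 of PI518671 at 30 dpi from different groups, SBA replicate 3 and SCN:SBA replicate 3, were correlated at r = 0.996 over genes, higher than any pair of the same group (0.866 to 0.989), and the comparisons whose fit held them were recomputed without them. Replicates 2 and 3 of the PI518671 control at 5 dpi stood apart from the libraries of other groups (mean r = 0.800 and 0.789), and their trimmed mean of M values (TMM) factors were 0.62 and 0.70 against 1.03 for replicate 1. A list of 4 IDs taken as markers of nodule tissue summed to 15.1 to 19602 CPM over the 47 libraries, and the 2 IDs taken as markers of green shoot had medians of 0.0908 and 1.75 CPM, but no source used here annotates these IDs. In a bulk root sample, fewer cells that express a gene and less RNA per cell cannot be told apart.

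Over all 47 libraries Glyma.12g020500 and Glyma.12g051100 varied least of the 6 genes and Glyma.12g024700 most. Variability was measured as the standard deviation (SD) of log2(TMM-scaled CPM + 0.5), and was set beside that of the 34389 genes with a mean of at least 1 CPM, whose median SD was 0.58. Glyma.12g020500 had an SD of 0.24, and 2.22% of these genes were less variable. Glyma.12g051100 had an SD of 0.27, with 5.20% of the genes below it. The next in order were Glyma.02g276600 with an SD of 0.41 (25.4% of genes below it), Glyma.18g290800 with 0.45 (32.5%), Glyma.19g052400 with 0.48 (36.4%) and Glyma.12g024700 with 0.57 (48.6%). The last of these was thus about as variable as the median gene of these roots. The lowest and the highest library were 2.33-fold apart for Glyma.12g020500 and 2.32-fold apart for Glyma.12g051100, against 3.27-fold for Glyma.02g276600, 4.99-fold for Glyma.18g290800, 6.09-fold for Glyma.19g052400 and 8.65-fold for Glyma.12g024700. All 6 genes were well counted, with at least 428 counts in every library. At 428 counts, counting error alone is a coefficient of variation of 4.83%, which is a lower limit as reads carry no molecular identifiers.

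**Figure D1:**
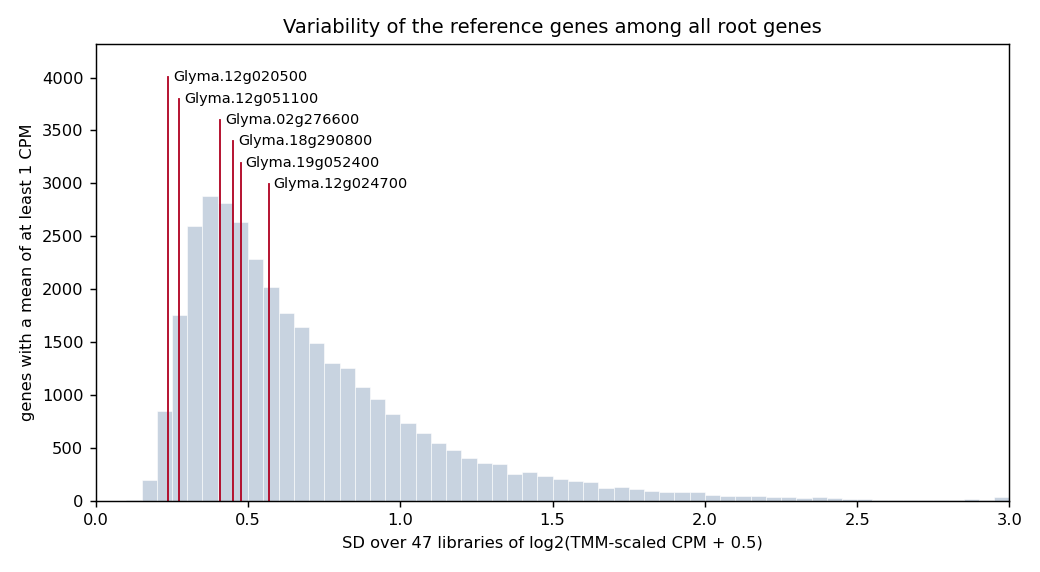
Histogram of the SD of log2(TMM-scaled CPM + 0.5) over 47 libraries for the 34389 genes with a mean of at least 1 CPM, with the 6 reference genes as red lines; the last bar also holds genes with an SD above the axis. Glyma.12g020500 (0.24) and Glyma.12g051100 (0.27) lie at the left edge of the distribution, while Glyma.12g024700 (0.57) lies at its median.

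The order of the genes depended on 1 group. Without the 3 PI518671 control libraries at 5 dpi, the SD of Glyma.18g290800 was 0.34 and that of Glyma.19g052400 was 0.37, both then below the 0.38 of Glyma.02g276600. Glyma.12g020500 (0.23) and Glyma.12g051100 (0.25) kept the lowest values without that group, and Glyma.12g024700 (0.58) the highest. With relative log expression (RLE) size factors the first 2 of these changed places without that group (0.25 and 0.24). With CPM on library totals in place of TMM, Glyma.12g051100 (0.38) came behind Glyma.02g276600 (0.37), and Glyma.12g020500 (0.28) remained the least variable. The differences between groups made up 80.3% of the variance of Glyma.18g290800, 67.6% of that of Glyma.19g052400 and 60.2% of that of Glyma.02g276600. For Glyma.12g020500, Glyma.12g051100 and Glyma.12g024700 the share was 53.2%, 49.98% and 52.0%. Over the 34389 genes with a mean of at least 1 CPM its median was 64.3%, with quartiles of 52.0% and 75.8%. Only the share of Glyma.18g290800 was thus above the third quartile. The treatment by itself made up 55.6% of the variance of Glyma.18g290800, but only 2.08% of that of Glyma.12g024700. Over the same 34389 genes the median of the treatment share was 7.90% and the third quartile 13.7%.

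All 6 genes varied less among the 12 MN1806CN libraries of 5 dpi than among the 12 PI518671 libraries of that time point. Glyma.12g020500 had an SD of 0.11 in MN1806CN against 0.29 in PI518671 at 5 dpi, Glyma.18g290800 0.21 against 0.75, and Glyma.19g052400 0.27 against 0.76. Of all 34389 genes, 84.3% were likewise less variable in MN1806CN at 5 dpi, with a median SD of 0.40 against 0.63, so the members shared this with most of the transcriptome. At 30 dpi, 5 of the 6 genes were less variable in MN1806CN, the exception being Glyma.12g051100 (0.24 against 0.22), and 51.4% of all genes were.

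**Figure D2:**
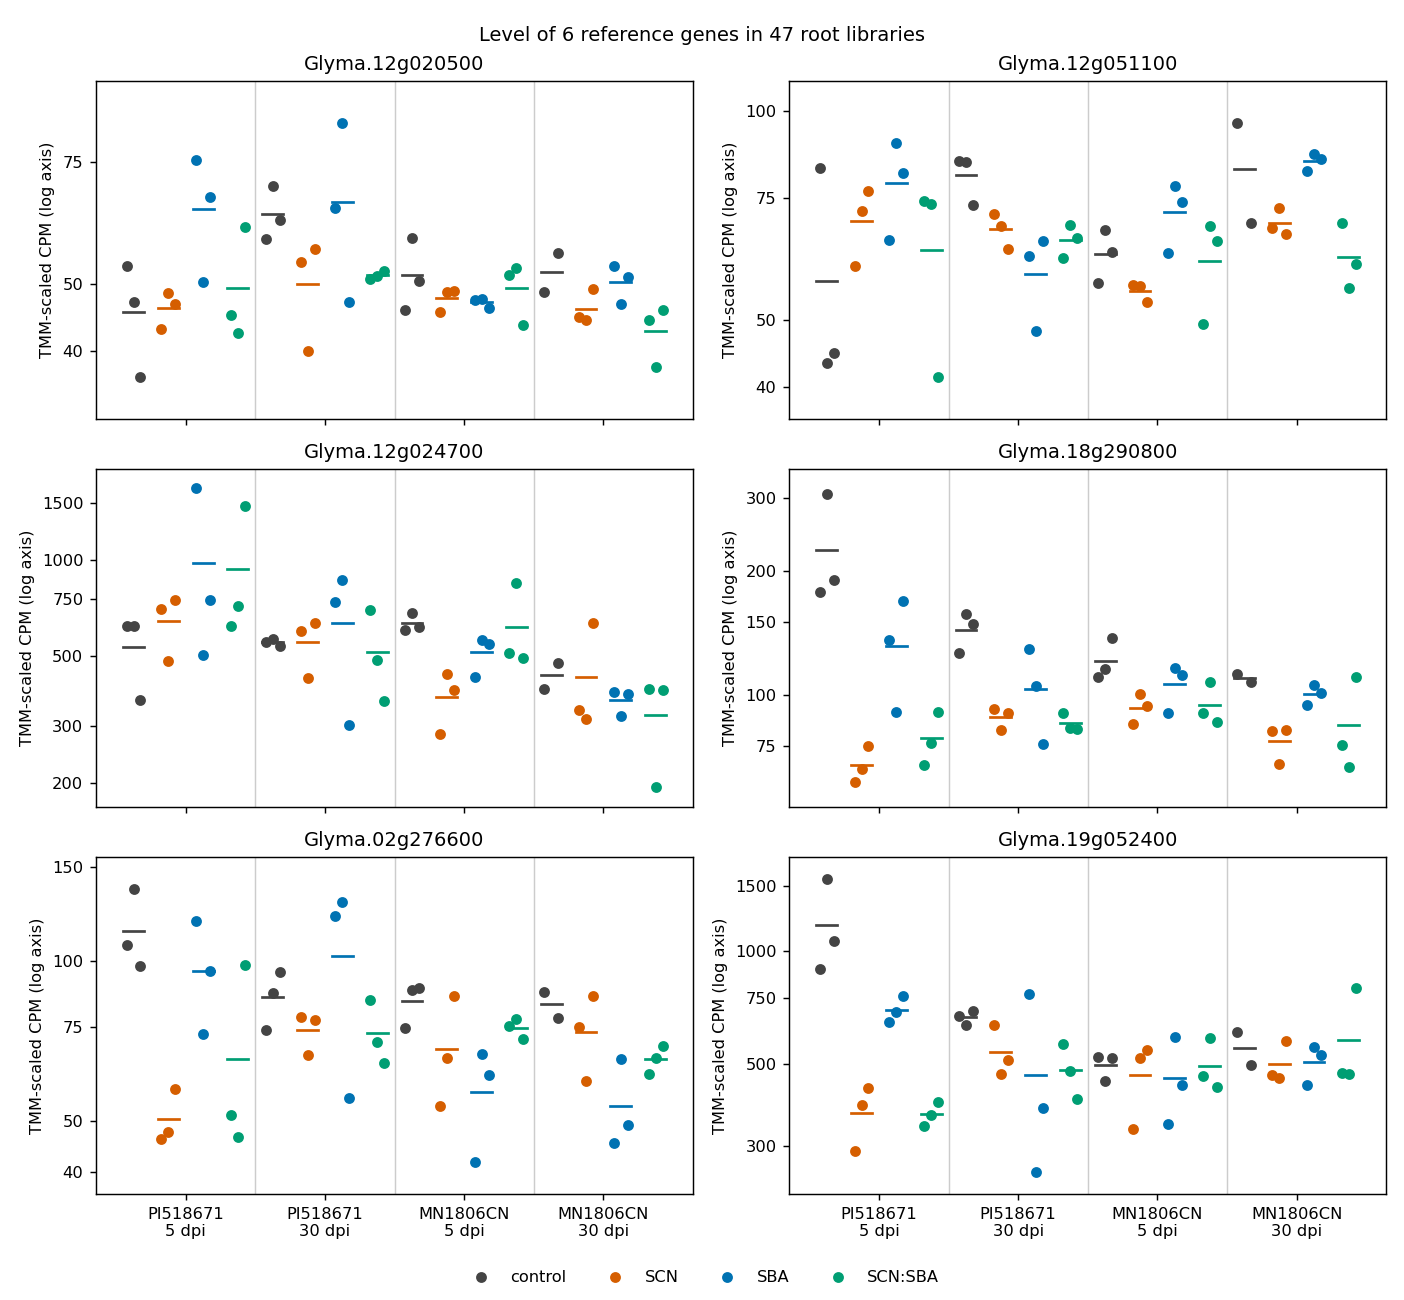
TMM-scaled CPM (log axis) of each of the 6 reference genes in the 47 libraries, by cultivar, time point and treatment; each point is 1 library and each bar the mean of its group. The PI518671 control libraries at 5 dpi stand above all other groups for Glyma.18g290800 (177 to 307) and Glyma.19g052400 (897 to 1559.7), while Glyma.12g020500 stays between 36.7 and 85.4 throughout.

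At 5 dpi the PI518671 controls held Glyma.12g020500 at 53.0, 47 and 36.7 CPM. These and the following CPM values are scaled by TMM unless library totals are named, and libraries are given in the order of replicates 1 to 3. It was at 43.0, 48.5 and 46.7 CPM under SCN, at 75.5, 50.3 and 66.7 CPM under SBA and at 45.1, 42.4 and 60.3 CPM under SCN:SBA. All 3 groups overlapped with the control, although SBA replicates 1 and 3 were above all its libraries. At 30 dpi in the same cultivar, the control was at 58.1, 69.4 and 61.9 CPM, SCN at 53.8, 40.04 and 56.2 CPM, SBA at 64.4, 85.4 and 47.1 CPM and SCN:SBA at 50.8, 51.3 and 52.3 CPM. All SCN and SCN:SBA libraries were below all controls there, whereas the SBA libraries spread to both sides of them. In MN1806CN the group means lay between 42.7 ± 4.23 CPM (SD, n = 3) under SCN:SBA at 30 dpi and 52.0 ± 4.76 CPM (SD, n = 2) in the control at 30 dpi. The highest of the 16 groups was PI518671 SBA at 30 dpi (65.6 ± 19.2 CPM, SD, n = 3), at 1.54-fold the lowest. When the groups were put in order of their mean, 14 of the 15 neighbouring pairs overlapped in their libraries, and the exception lay between the MN1806CN and the PI518671 control of 30 dpi.

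Glyma.12g051100 was uneven within the PI518671 control at 5 dpi, with 82.7 CPM in replicate 1 but 43.2 and 44.8 CPM in replicates 2 and 3, the libraries that stood apart. It was at 59.8, 71.8 and 76.7 CPM under SCN, at 65.2, 89.7 and 81.3 CPM under SBA and at 74.2, 73.4 and 41.4 CPM under SCN:SBA at that time point. All these groups overlapped with the control. At 30 dpi the PI518671 control was at 84.7, 84.5 and 73.2 CPM, and the 9 infested libraries, between 48.1 and 71.1 CPM, were all lower. In MN1806CN the means were 62.2 ± 5.43 CPM in the control, 55.1 ± 1.72 CPM under SCN, 71.4 ± 8.02 CPM under SBA and 60.8 ± 10.1 CPM under SCN:SBA at 5 dpi (SD, n = 3 each). At 30 dpi they were 82.4 ± 19.2 CPM in the control (SD, n = 2) and 68.9 ± 3.11, 84.6 ± 2.33 and 61.5 ± 6.78 CPM under SCN, SBA and SCN:SBA (SD, n = 3 each). All 15 neighbouring pairs of groups overlapped for this gene, and the highest group mean was 1.54-fold the lowest.

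Glyma.12g024700 differed most between libraries of the same group. Under SBA in PI518671 at 5 dpi it was at 1674, 504 and 746 CPM, and under SCN:SBA at 619.8, 714 and 1473 CPM, against 618, 621 and 363 CPM in the control and 701, 482 and 748 CPM under SCN. The highest libraries of all 3 infested groups were above every control, but each group also held a library within the control's range. Its SD within groups was 0.48, and 63.1% of the 34389 genes varied less within groups. At 30 dpi in PI518671 the control was even, at 551, 563 and 538 CPM, while SBA ran from 303 to 863 CPM and SCN:SBA from 361 to 693 CPM. In MN1806CN the control was at 602, 680.2 and 614 CPM at 5 dpi and the SCN libraries at 284, 437 and 391 CPM. Those SCN libraries were all below the controls. The lowest library of all, 193 CPM, was replicate 2 of MN1806CN SCN:SBA at 30 dpi, and the means of the 16 groups ran from 325 to 974 CPM with an overlap between all 15 neighbours.

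Glyma.18g290800 separated the treatments most clearly. In PI518671 at 5 dpi the control was at 177, 307 and 190.4 CPM, SCN at 61.6, 65.9 and 74.95 CPM, SBA at 136, 91.0 and 169 CPM and SCN:SBA at 67.7, 76.4 and 91.0 CPM. All 9 infested libraries were below all 3 controls. At 30 dpi the PI518671 control was at 126, 157 and 149 CPM, SCN at 92.6, 82.0 and 90.1 CPM, SBA at 129, 105 and 75.8 CPM and SCN:SBA at 90.5, 83.0 and 82.6 CPM. Here SBA replicate 1 lay within the controls, and all SCN and SCN:SBA libraries lay below them. In MN1806CN at 5 dpi the control was at 110.2, 115 and 137 CPM, SCN at 84.8, 100.2 and 94.0 CPM, SBA at 90.3, 116 and 111 CPM and SCN:SBA at 90.2, 107 and 86.1 CPM. At 30 dpi it was at 112 and 107 CPM in the control, at 81.5, 68.0 and 82.1 CPM under SCN, at 94.4, 105 and 101 CPM under SBA and at 75.5, 66.7 and 110.4 CPM under SCN:SBA. The resistant cultivar thus had the same order of control and SCN libraries as the susceptible one, over a smaller range. Of the 15 neighbouring pairs of group means, 14 overlapped, and only the PI518671 control at 5 dpi stood wholly above the group next to it.

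Put together over both cultivars and time points, the 11 control libraries of Glyma.18g290800 lay between 107 and 307 CPM and the 12 SCN libraries between 61.6 and 100.2 CPM, without an overlap. Of the 43122 genes, 10 (0.0232%) had all SCN libraries below all controls and 29 (0.0673%) had them all above. Of the 12 SCN:SBA libraries 10 lay below the lowest control, and of the 12 SBA libraries 7. The 8 groups with nematodes, SCN or SCN:SBA, also had the 8 lowest of its 16 group means, up to 94.5 CPM, while the lowest group without nematodes was at 100.3 CPM; 27 genes (0.0626%) had that order. For the other 5 members, 4 to 6 of the 8 nematode groups were among the 8 lowest. With CPM on library totals the separation was not complete, with 9 of the 12 SCN libraries below the lowest control (94.1 CPM) and 6 of the 8 nematode groups among the lowest. These values describe the libraries and carry no test, and the treatments were compared within each cultivar and time point as follows.

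Glyma.02g276600 was at 107, 137 and 97.8 CPM in the PI518671 control at 5 dpi and at 46.3, 47.6 and 57.4 CPM under SCN. It was at 119, 72.8 and 95.7 CPM under SBA and at 51.3, 46.7 and 98.1 CPM under SCN:SBA. The SCN libraries were all below the controls, and SCN:SBA had 1 library within their range. At 30 dpi PI518671 SBA again held an uneven set, 122, 129 and 55.3 CPM, around a control at 74.3, 87.1 and 95.2 CPM. In MN1806CN the SBA groups were the lowest, at 41.8, 67.0 and 61.1 CPM against 74.8, 88.2 and 88.8 CPM in the control at 5 dpi, and at 45.5, 65.3 and 49.1 CPM against 87.5 and 78.2 CPM at 30 dpi. All SBA libraries of MN1806CN were below the controls of their time point. Of the neighbouring group means 14 of 15 overlapped, the exception being MN1806CN SCN:SBA at 5 dpi and the MN1806CN control at 30 dpi.

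Glyma.19g052400 was at 897, 1559.7 and 1064 CPM in the PI518671 control at 5 dpi, at 292, 386 and 429.8 CPM under SCN, at 648, 686 and 758 CPM under SBA and at 339, 365 and 395 CPM under SCN:SBA. All infested libraries were below all controls, and the SBA libraries lay between the controls and the nematode groups without touching either. In PI518671 at 30 dpi the control was at 673, 635 and 693 CPM and SBA at 766, 256 and 379 CPM, with 1 library above all controls and 2 below them. The 8 groups of MN1806CN were close together, with means between 457 ± 124 CPM under SBA at 5 dpi and 579 ± 189.9 CPM under SCN:SBA at 30 dpi (SD, n = 3 each). Apart from the step up to the PI518671 control at 5 dpi, all neighbouring groups overlapped.

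The comparison of each treatment with the control asked whether a pest changed the level of a reference gene. In 12 comparisons of 6 genes each, 5 of 72 values passed an adjusted p of 0.05 (edgeR's quasi-likelihood test, Benjamini-Hochberg adjustment over all genes tested), all of them lower and all in PI518671 at 5 dpi, and 15 of 72 had an unadjusted p below 0.05. The 3 treatments of a cultivar and time point share their control libraries, so their values are not independent of each other. The control of all 5 calls held the replicates 2 and 3 that stood apart from the libraries of other groups. Under SCN, 3 of the 6 genes fell, where 23.6% of all 43049 genes tested changed and 10.3% fell. Glyma.18g290800 fell by 1.76 on the log2 scale (SE 0.36, adjusted p = 0.0053), a 3.39-fold lower level. Glyma.19g052400 fell by 1.69 (SE 0.38, adjusted p = 0.00871), or 3.24-fold. Glyma.02g276600 fell by 1.19 (SE 0.37, adjusted p = 0.0358), or 2.28-fold. The other 3 genes had log2 changes of 0.01 (SE 0.28, Glyma.12g020500), 0.30 (SE 0.32, Glyma.12g051100) and 0.26 (SE 0.54, Glyma.12g024700), with adjusted p from 0.522 to 0.981. The median change of the 6 genes was -0.59 and that of all genes 0.09.

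Under SCN:SBA in PI518671 at 5 dpi, 2 of the 6 genes fell, where 21.6% of all genes changed and 9.02% fell. Glyma.19g052400 fell by 1.70 on the log2 scale (SE 0.38, adjusted p = 0.00976) and Glyma.18g290800 by 1.54 (SE 0.36, adjusted p = 0.0112). Glyma.02g276600 had a change of -0.80 (SE 0.37, adjusted p = 0.136), and without SCN:SBA replicate 3, its high library, of -1.26 (adjusted p = 0.0249). It also passed with no library left out in edgeR's fit of all 47 libraries (-0.80, SE 0.26, adjusted p = 0.0147). Under SBA in PI518671 at 5 dpi none of the 6 genes passed edgeR's test, where 11.6% of all genes did. At an unadjusted p below 0.05 there were 2, Glyma.18g290800 at -0.83 (SE 0.35, adjusted p = 0.134) and Glyma.19g052400 at -0.81 (SE 0.37, adjusted p = 0.166), and both passed by DESeq2's Wald test (adjusted p = 0.0482 and 0.0233). They also passed in edgeR without control replicate 1 (adjusted p = 0.0441 and 0.0388). In a fit of all 47 libraries 3 genes passed, these 2 with falls and Glyma.12g020500 with a rise (0.49, SE 0.18, adjusted p = 0.0377, against 0.46 and 0.292 in the fit of its cultivar and time point). Glyma.12g024700 had the widest error in this comparison, at 0.85 (SE 0.54). All treated libraries lay below all controls for 3, 2 and 2 of the 6 genes under SCN, SBA and SCN:SBA, and for 19.5%, 13.6% and 15.7% of all genes.

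The scaling of the libraries moved these values. With library totals in place of TMM, the median change of all genes at 5 dpi in PI518671 went from 0.09 to 0.48 under SCN, from 0.19 to 0.72 under SBA and from 0.13 to 0.65 under SCN:SBA. The change of Glyma.02g276600 under SCN was then -0.72 (adjusted p = 0.151) and that of Glyma.18g290800 under SCN:SBA -0.91 (adjusted p = 0.0526), so both lost the call, and the other 3 kept it with a fall. The SBA change of Glyma.02g276600, -0.29 with TMM, was 0.29 on library totals. The call of Glyma.02g276600 under SCN also ended with any 1 of 6 libraries left out: the SCN libraries (adjusted p = 0.111, 0.0788 and 0.0720 without replicates 1, 2 and 3), the control replicates 2 and 3 (0.134 and 0.0554) and SBA replicate 3 (0.0510). The other 4 calls held with each of the 12 libraries left out in turn. Each of these fits kept control replicate 2 or 3, the libraries that stood apart, and leaving out both was not tried. In a fit of the 2 groups alone 3 of these 4 calls were lost, Glyma.19g052400 under SCN (adjusted p = 0.0610) and SCN:SBA (0.0766) and Glyma.18g290800 under SCN:SBA (0.0589). In the same comparisons the summed level of the 4 nodule IDs, as CPM on library totals, was 21.3 to 276 CPM in the control. It was 1521 to 17324 CPM under SCN, 52.9 to 4471 CPM under SBA and 568 to 7957 CPM under SCN:SBA. On library totals all 4 IDs were above every control under SCN and under SCN:SBA, and none was at 0 in any library. In MN1806CN at 5 dpi, where edgeR called no member, the sum was 101 to 263 CPM in the control. It was 15.1 to 3094 CPM under SCN, 41.3 to 3777 CPM under SBA and 905 to 10812 CPM under SCN:SBA. In PI518671 at 30 dpi, likewise without a call, the control was at 150 to 4287 CPM. SCN was at 7212 to 12358 CPM, SBA at 426 to 11782 CPM and SCN:SBA at 4126 to 12790 CPM. The infested groups of MN1806CN at 30 dpi all overlapped with their control. The part of the nodule IDs in the changes of the reference genes was not tested.

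**Figure D3:**
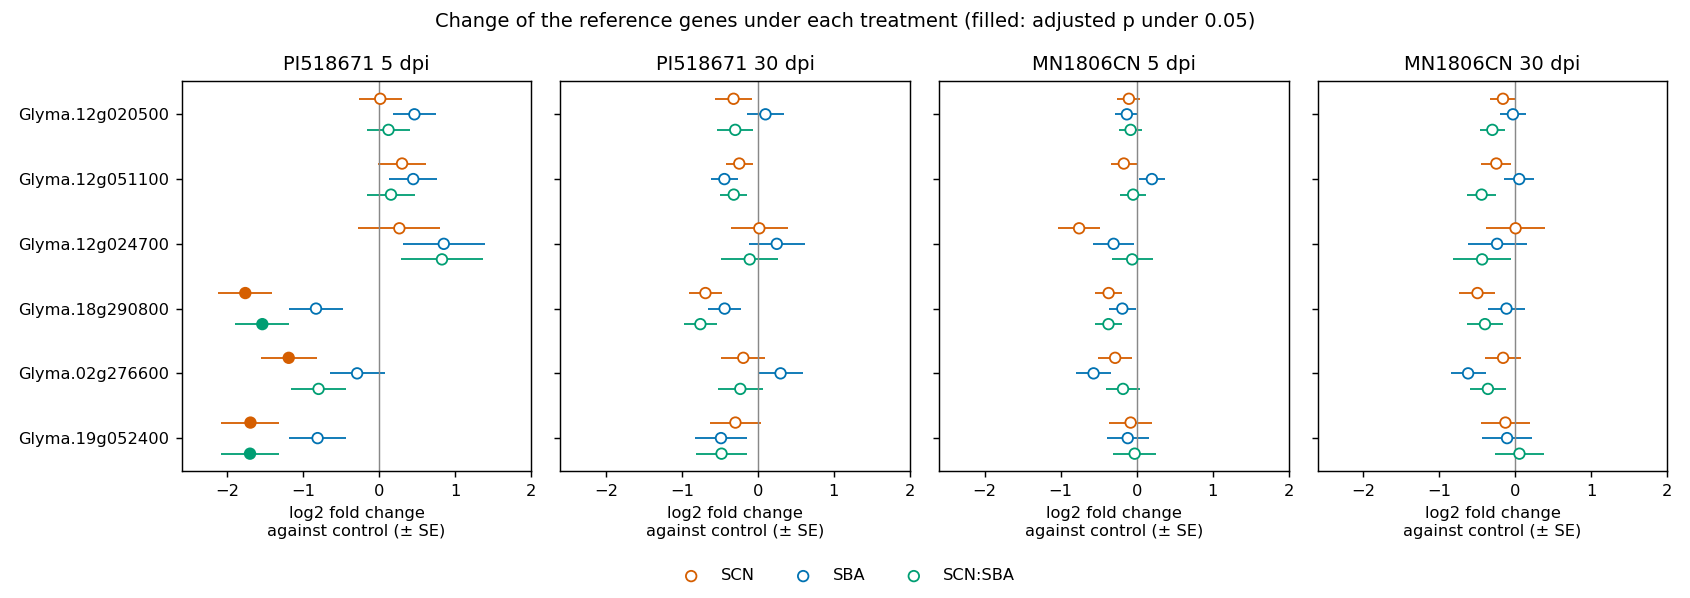
Log2 fold change against the control of the same cultivar and time point (edgeR, TMM) for the 6 reference genes under SCN, SBA and SCN:SBA; points are estimates, lines are ± 1 SE, and filled points have an adjusted p under 0.05. The 5 filled points, from -1.76 to -1.19, are all in PI518671 at 5 dpi and belong to Glyma.18g290800, Glyma.19g052400 and, under SCN, Glyma.02g276600.

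In PI518671 at 30 dpi none of the 6 genes passed in any of the 3 comparisons, where 0.358%, 0.00697% and 1.02% of all genes did under SCN, SBA and SCN:SBA, and 3 of the 18 values had an unadjusted p below 0.05. The largest of these changes were those of Glyma.18g290800, -0.69 under SCN (SE 0.22, adjusted p = 0.165) and -0.76 under SCN:SBA (SE 0.22, adjusted p = 0.0967). Both passed in edgeR without the 2 near-identical libraries, at -0.69 (adjusted p = 0.0332) and -0.73 (adjusted p = 0.0386), or without SBA replicate 3 alone (adjusted p = 0.0291 and 0.0138), and by DESeq2 (adjusted p = 0.0333 and 0.0121). They also passed in edgeR in a fit of the 2 groups alone (adjusted p = 0.0123 and 0.0158). Glyma.12g051100 was at -0.44 under SBA (SE 0.18, adjusted p = 0.279). All SCN libraries were below all controls for 3 genes, Glyma.12g020500, Glyma.12g051100 and Glyma.18g290800, and for 17.4% of all genes. Under SCN:SBA this held for those 3 and Glyma.19g052400 and for 15.9% of all genes, and under SBA for Glyma.12g051100 and 8.71% of all genes.

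In MN1806CN none of the 36 values passed edgeR's test, where the share of all genes called at 5 dpi was 0.00465% under SCN, 0.0% under SBA and 7.48% under SCN:SBA, and at 30 dpi 0.572%, 0.0% and 14.7%. At an unadjusted p below 0.05 there were 4 values. Glyma.12g024700 had -0.76 under SCN at 5 dpi (SE 0.27, adjusted p = 0.196), and passed by DESeq2 (adjusted p = 0.0341). Glyma.02g276600 had -0.57 under SBA at 5 dpi (SE 0.23, adjusted p = 0.201) and -0.62 under SBA at 30 dpi (SE 0.23, adjusted p = 0.413). Glyma.12g051100 had -0.44 under SCN:SBA at 30 dpi (SE 0.19, adjusted p = 0.156). Glyma.18g290800 was between -0.50 and -0.37 under SCN and SCN:SBA at both time points of this cultivar, with adjusted p of 0.196 or more. All treated libraries lay below all controls at 5 dpi for 3, 2 and 1 of the 6 genes under SCN, SBA and SCN:SBA, where 11.0%, 9.86% and 15.4% of all genes did. At 30 dpi this held for 1, 3 and 3 of the 6 genes, and for 19%, 16.6% and 20.6% of all genes. In none of the 12 comparisons of both cultivars did any of the 6 genes have all treated libraries above all controls, whereas Glyma.18g290800 had them all below in 9 of the 12, which 42 of the 43122 genes (0.0974%) reached or passed; with library totals it was 7 of the 12 (196 genes).

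Whether the change under a pest differed between the cultivars was tested as an interaction, MN1806CN minus PI518671. At 5 dpi, 2 of the 6 genes passed for SCN and the same 2 for SCN:SBA, where 12.5% and 13.3% of all genes did. For Glyma.19g052400 the difference was 1.56 under SCN (SE 0.42, adjusted p = 0.0195) and 1.71 under SCN:SBA (SE 0.42, adjusted p = 0.0104). In MN1806CN this gene had changes of -0.08 and -0.03, against falls of 1.69 and 1.70 in PI518671. For Glyma.18g290800 the difference was 1.34 under SCN (SE 0.36, adjusted p = 0.0209) and 1.21 under SCN:SBA (SE 0.36, adjusted p = 0.0321). For Glyma.02g276600 it was 0.85 under SCN (SE 0.40, adjusted p = 0.175), so the fall of this gene in PI518671 was not shown to differ from its change in MN1806CN. None of the 6 genes passed for SBA at 5 dpi (9.24% of all genes) or for any treatment at 30 dpi (0.0278%, 0.0% and 3.89%); at an unadjusted p below 0.05 there were 1 and 2 of them, and none passed by DESeq2.

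With library totals, the differences of Glyma.18g290800 lost the call, at 1.00 under SCN (adjusted p = 0.0553) and 0.81 under SCN:SBA (adjusted p = 0.113), and those of Glyma.19g052400 kept it. Replicate 2 of the PI518671 control at 5 dpi, the highest library of both genes, weighed most: without it the differences under SCN were 1.05 for Glyma.18g290800 (adjusted p = 0.0638) and 1.30 for Glyma.19g052400 (adjusted p = 0.0550), and that of Glyma.18g290800 under SCN:SBA was 0.85 (adjusted p = 0.110). The SCN differences were also not called without PI518671 SCN replicate 1 (adjusted p = 0.0524 for Glyma.18g290800 and 0.0556 for Glyma.19g052400) and, for Glyma.18g290800, without MN1806CN SCN replicate 2 (0.0507). The SCN:SBA difference of Glyma.18g290800 was not called without MN1806CN SCN:SBA replicate 2 (0.0795), MN1806CN control replicates 1 or 2 (0.0680 and 0.0590) or PI518671 SCN:SBA replicates 1 or 2 (0.0699 and 0.0575). The SCN:SBA difference of Glyma.19g052400 held without each of the 24 libraries of the fit. At 30 dpi the SBA difference of Glyma.02g276600 was -0.91 (adjusted p = 0.296), and -1.22 without the 2 near-identical libraries (adjusted p = 0.0223) or without PI518671 SBA replicate 3 alone (0.0200).

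Between the cultivars, averaged over the 4 treatments, 2 of the 6 genes were lower in MN1806CN at 30 dpi and none was called at 5 dpi. Reads of both cultivars were mapped to transcripts of PI518671. In the paper's figures every MN1806CN library of 30 dpi had a lower share of mapped reads than every PI518671 library of 30 dpi. The part of this in the differences was not tested. At 5 dpi 23.0% of all genes passed edgeR's test, and 1 of the 6 had an unadjusted p below 0.05. That was Glyma.12g024700, lower in MN1806CN with a log2 difference of -0.53 (SE 0.21, adjusted p = 0.0708), which passed by DESeq2 (adjusted p = 0.0271) and in edgeR without MN1806CN SCN:SBA replicate 2 (0.0471) or PI518671 SBA replicate 2 (0.0361). At 30 dpi, beside the 2 genes, 42.6% of all genes differed and 24.5% were lower in MN1806CN. Glyma.12g024700 differed by -0.58 (SE 0.19, adjusted p = 0.0220), and without MN1806CN control replicate 1 by -0.55 (adjusted p = 0.0590). Glyma.12g020500 differed by -0.30 (SE 0.10, adjusted p = 0.0242). That last call ended with any 1 of 7 of the 23 libraries left out, at adjusted p from 0.0523 to 0.0719: MN1806CN SBA replicate 2, SCN replicate 2, SCN:SBA replicates 1 and 2 and control replicate 1, and PI518671 SBA replicate 2 and SCN replicate 3. Glyma.02g276600 differed by -0.32 (adjusted p = 0.0624), and passed without the 2 near-identical libraries (-0.42, adjusted p = 0.00281), without PI518671 SBA replicate 3 alone (-0.40, 0.0032), and without MN1806CN SBA replicate 2 (0.0467) or SCN replicate 3 (0.0451). Glyma.18g290800 differed by -0.19 (adjusted p = 0.167), and passed without PI518671 SBA replicate 3 (-0.24, 0.0477) or MN1806CN SCN:SBA replicate 3 (-0.26, 0.0438).

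Between 30 and 5 dpi, 1 of the 6 genes passed when both cultivars were averaged, where 46.0% of all genes did and 24% were lower. Glyma.12g024700 was lower at 30 dpi by a log2 difference of -0.43 (SE 0.14, adjusted p = 0.0123), with 193 to 863 CPM at 30 dpi (median 427) against 284 to 1674 CPM at 5 dpi (median 608), and kept the call with each of the 47 libraries left out. Within PI518671 and within MN1806CN the same gene had -0.42 (SE 0.20, adjusted p = 0.0979) and -0.44 (SE 0.20, adjusted p = 0.0810), so none of the 6 genes passed within a cultivar, where 34.2% and 41.3% of all genes did, and 3 of these 12 values had an unadjusted p below 0.05. Besides those of Glyma.12g024700 this was Glyma.12g051100 in MN1806CN, at 0.25 (SE 0.11, adjusted p = 0.0621), which passed by DESeq2 (adjusted p = 0.0197). With library totals 5 values passed over the 3 time comparisons in place of 1. These included falls of Glyma.12g024700 in each cultivar (-0.51 and -0.56) and of Glyma.18g290800 in MN1806CN (-0.29) and over both (-0.24). Glyma.19g052400, Glyma.02g276600 and Glyma.12g020500 had values between -0.11 and 0.17 in all 3 time comparisons.

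Some of the time values that were not called passed when 1 library was left out. Glyma.12g051100 in MN1806CN passed without any 1 of 8 libraries (adjusted p from 0.0191 to 0.0442), which were MN1806CN control replicate 2 of 5 dpi and replicate 2 of 30 dpi, MN1806CN SBA replicate 1 of 30 dpi, PI518671 control replicate 1, SBA replicate 1 and SCN:SBA replicate 3 of 5 dpi, and PI518671 SBA replicate 1 and SCN:SBA replicate 1 of 30 dpi. The PI518671 libraries do not enter the MN1806CN difference itself, which stayed at 0.25 without any of those listed. Over both cultivars Glyma.12g051100 passed without MN1806CN control replicate 2 of 30 dpi (0.17, adjusted p = 0.0461) or PI518671 control replicate 1 of 5 dpi (0.18, 0.0224). Glyma.12g024700 passed in both cultivars without PI518671 SBA replicate 2 of 5 dpi (adjusted p = 0.0425 in PI518671 and 0.0474 in MN1806CN), and in MN1806CN without its SCN replicate 1 of 5 dpi (0.0488), SCN replicate 3 of 30 dpi (0.0343) or SCN:SBA replicate 3 of 30 dpi (0.0475). Glyma.12g020500 in PI518671 passed with a higher level at 30 dpi without SCN:SBA replicate 3 of 5 dpi (0.23, adjusted p = 0.0465) or SBA replicate 3 of 30 dpi (0.22, 0.0422). Glyma.18g290800 over both cultivars passed with a lower level without MN1806CN SCN:SBA replicate 3 of 30 dpi (-0.20, adjusted p = 0.0341) or PI518671 SBA replicate 2 of 5 dpi (-0.20, 0.0406).

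A ratio of 2 genes within a library depends little on the scaling of that library, which enters only through the 0.5 CPM added to both, and shows which reference genes kept step with each other. Of the 15 pairs, Glyma.18g290800 and Glyma.19g052400 had the steadiest ratio, with an SD of 0.30 on the log2 scale over 47 libraries. Both were highest in the PI518671 control at 5 dpi, and their log2 ratio there (-2.39 ± 0.08, SD, n = 3) was close to that in the other 44 libraries (-2.35 ± 0.30, SD). The least steady pair was Glyma.12g024700 and Glyma.19g052400, with an SD of 0.72 and a 10.9-fold range, from a log2 ratio of -1.55 in replicate 3 of the PI518671 control at 5 dpi to 1.90 in SCN:SBA replicate 3 of the same cultivar and time. The mean ratio of these groups differed by 5.22-fold. The ratio of the 2 genes with the lowest SD, Glyma.12g020500 and Glyma.12g051100, had an SD of 0.35 and ranged over 3.47-fold.

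The ratio of Glyma.12g020500 to Glyma.18g290800 had a log2 mean of -0.90 outside the 5 dpi control of PI518671 and of -2.26 ± 0.49 (SD, n = 3) within it, and its SD was 0.43 with that group and 0.26 without it. The latter was the lowest of all pairs without that group. The log2 ratio of Glyma.12g020500 to Glyma.19g052400 was -4.65 in that group and -3.26 in the other libraries. The mean SD of a gene's ratios to the other 5 was lowest for Glyma.12g020500 (0.42), Glyma.02g276600 (0.43) and Glyma.18g290800 (0.45), and higher for Glyma.19g052400 (0.50), Glyma.12g051100 (0.53) and Glyma.12g024700 (0.60). By this measure Glyma.12g051100 was second to last, although its own SD was second lowest. Without the PI518671 control at 5 dpi the 3 lowest were Glyma.12g020500 (0.35), Glyma.18g290800 (0.36) and Glyma.02g276600 (0.40).

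**Figure D4:**
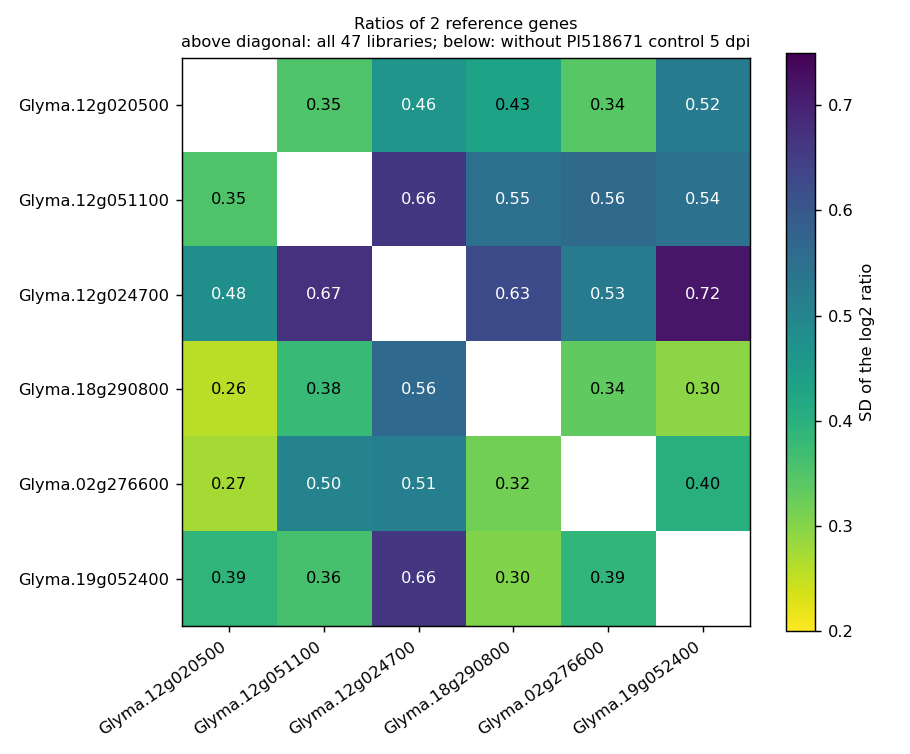
SD of the log2 ratio of each pair of reference genes over all 47 libraries (above the diagonal) and without the 3 PI518671 control libraries at 5 dpi (below it); darker cells are less steady ratios. The darkest cells on both sides are pairs with Glyma.12g024700, up to 0.72 with Glyma.19g052400, while the pair of Glyma.12g020500 and Glyma.18g290800 goes from 0.43 to 0.26.

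For each member, the gene whose pattern over the 47 libraries was most like it was found among 34388 genes by Pearson's r of log2(TMM-scaled CPM + 0.5), given as a description, since all points share the scaling of their libraries. Glyma.19g052400 was most like Glyma.05g114900 (r = 0.959), and the log2 ratio of the pair had an SD of 0.14. Glyma.02g276600 was most like Glyma.03g142300 (r = 0.932) and Glyma.18g290800 most like Glyma.02g091900 (r = 0.907). For Glyma.12g051100 it was Glyma.10g001000 (r = 0.891), for Glyma.12g020500 Glyma.02g066400 (r = 0.890) and for Glyma.12g024700 Glyma.11g098700 (r = 0.849). None of the 6 was the nearest gene of another member.

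The counts of 4 members, Glyma.12g024700, Glyma.18g290800, Glyma.02g276600 and Glyma.19g052400, had a fractional part in all 47 libraries, as arises where reads are shared out among similar transcripts, and their levels are uncertain to that extent. Glyma.12g020500 had a fractional count in 31 libraries and Glyma.12g051100 in 25, against 54.6% of all values of the genes kept. These counts were taken as whole only where they equalled a whole number exactly. A second list of 5 IDs, given as further genes used as references, was set beside them. Of those, Glyma.20g130700 had an SD of 0.17, with 36 of the 34389 genes less variable and a range from 18.2 to 31.0 CPM, and was steadier than all 6 members. Glyma.20g141600 (0.28) was about as variable as Glyma.12g051100, while Glyma.05g157300 (0.55), Glyma.19g147900 (0.81) and Glyma.03g124400 (0.85) were more variable than 5, 6 and 6 of the members.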

How the data were processed

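The authors trimmed single-end HiSeq reads with Btrim64, quantified them with Salmon 0.9.1 on the primary coding sequences of Wm82.a2.v1, and deposited estimated counts (expected counts) per gene and library, neither normalized nor filtered. Of all deposited values, 42.7% had a fractional part. They were rounded to whole numbers here. Columns were matched to libraries and libraries to groups by their labels, and replicates are plants from 3 blocks. Genes that reached 0.5 CPM in at least 1 library were kept, as the study did (43122 of 55983).

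CPM was scaled by TMM (edgeR 4.0.16 in R 4.3.3). Differences were tested with edgeR's quasi-likelihood F test, two-sided, on group means, with Benjamini-Hochberg adjustment over all genes tested and a threshold of 0.05. The fit of a treatment comparison held the libraries of that cultivar and time point, that of a cultivar comparison or interaction those of the time point, and that of a time comparison all 47. The SE was taken as the absolute log2 change divided by the root of the F statistic. Levels, SDs and ratios came from pandas 2.3.3 and numpy 2.4.6 (Python 3.11.15), and plots from matplotlib 3.10.9. The fits were tested on simulated data. Depth was 8472681 to 47902105 counts per library, and reads carry no molecular identifiers, so counting errors are a lower limit.

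Alternatives were RLE size factors, no filter, DESeq2 1.42.0, the replicate number as a block, other sets of libraries in the fit, no constant in the log2 and each library left out. Library totals and leaving out the near-identical libraries were added after seeing the data. The members and the lists were chosen with earlier results of these data known, and all 6 members are named. None of the 55983 IDs occurs in the annotation table used here, so no names, sequences or gene families are given, and a list for root endodermis by annotation was not used.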

Additional observations from a re-analysis of the deposited data

Results flagged for a closer look

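The change of a reference gene under a pest differed between the cultivars in 4 tests at 5 dpi, each an interaction in edgeR, MN1806CN minus PI518671 on the log2 scale. For Glyma.18g290800 the difference was 1.34 under SCN and 1.21 under SCN:SBA. For Glyma.19g052400 it was 1.56 under SCN and 1.71 under SCN:SBA. Of all genes, 12.5% passed this test under SCN and 13.3% under SCN:SBA. On library totals both values of Glyma.18g290800 lost the call (adjusted p = 0.0553 and 0.113). Without PI518671 control replicate 2, 3 of the 4 lost it, at adjusted p of 0.0638 and 0.110 for Glyma.18g290800 and 0.0550 for Glyma.19g052400 under SCN.

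From 5 to 30 dpi, 2 genes moved in opposite directions in the 2 cultivars with every library of the later time on one side of every library of the earlier time. Glyma.12g051100 under SBA had a log2 ratio of group means, 30 over 5 dpi, of -0.43 in PI518671 and of 0.24 in MN1806CN. Glyma.18g290800 under SCN had 0.39 in PI518671 and -0.27 in MN1806CN. Of the 43122 genes, 0.668% had such opposite moves under SBA and 2.72% under SCN, and 9.15% had them under at least 1 of the 4 treatments. These 2 differences between the cultivars were not tested, and time and water bath cannot be told apart in them.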

How the results depend on the processing

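None of the 12 called changes turned its direction under any alternative. Calls are counted here as values, 1 gene in 1 comparison, so a gene can count more than once. The number of values called under a treatment, 5, was 3 with library totals, 10 with DESeq2 and 9 in a fit of all 47 libraries. It was 4 to 7 with each library left out. Between cultivars it was 2, and 0 to 4 with each library left out. Between time points it was 1, and 2 with RLE size factors, 5 with library totals, 2 with DESeq2 and 1 to 4 with each library left out. For the difference between cultivars it was 4, and 2 with library totals and 1 to 5 with each library left out. In a fit of the 2 groups alone Glyma.19g052400 lost its calls under SCN (adjusted p = 0.0610) and SCN:SBA (0.0766), and Glyma.18g290800 under SCN:SBA (0.0589), each with a like change. The same fit gained calls of Glyma.18g290800 in PI518671 at 30 dpi, under SCN (-0.69, adjusted p = 0.0123) and SCN:SBA (-0.76, 0.0158). The causes were not tested.

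Over all 345 pairs of libraries with the same replicate number the mean r of their deviations was -0.0113. These include pairs of 5 with 30 dpi, which came from different water baths. The pooled mean therefore cannot show whether the numbers name blocks within a time point. Within a cultivar and time point the mean r was -0.0876 and -0.00125 in PI518671 at 5 and 30 dpi and 0.185 and -0.101 in MN1806CN, where the 18 pairs of 5 dpi ran from -0.212 to 0.504. Pairs with different numbers had means of 0.0412 and 0.000784 in PI518671 and of -0.0935 and 0.0506 in MN1806CN. Not every pair was above 0.1, and no source used here says that a number names a block of plants, so the numbers were not taken as pairs. With the number as a block the counts were 4, 2, 1 and 4, and the SCN change of Glyma.02g276600 was not called (-1.22, adjusted p = 0.0590). Signs changed in 21 uncalled values of the members with library totals, none above 0.29 in size with TMM, and in 2 each with RLE, DESeq2 and the block.

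The SD of log2 level moved with library totals for Glyma.12g020500 (0.28) and Glyma.12g051100 (0.38), and without the PI518671 control at 5 dpi for Glyma.18g290800 (0.34) and Glyma.19g052400 (0.37). The number of all genes called moved by over 1.5 times in all 12 treatment comparisons. For PI518671 at 5 dpi it went from 10176 to between 4920 and 17333 under SCN, from 5002 to between 942 and 12945 under SBA and from 9295 to between 4144 and 16524 under SCN:SBA. At 30 dpi it went from 154 to between 0 and 6040, from 3 to between 0 and 4777 and from 439 to between 0 and 5076. For MN1806CN at 5 dpi it went from 2 to between 0 and 2356, from 0 to up to 3429 and from 3218 to between 7 and 7466. At 30 dpi it went from 246 to between 0 and 1892, from 0 to up to 463 and from 6308 to between 2381 and 8467. The number of interactions went from 5401 to between 2682 and 10646 under SCN, from 3985 to between 1387 and 9560 under SBA and from 5750 to between 3337 and 9609 under SCN:SBA at 5 dpi, and from 12 to between 1 and 440, from 0 to up to 5238 and from 1676 to between 812 and 2603 at 30 dpi. The shares of all genes given beside the members shift with them.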
